A study of Mus musculus with 8 samples.

Results

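The 44 genes described here were listed for the parts that surround the motors in the axoneme of cilia and the sperm tail. These are radial spokes, the nexin-dynein regulatory complex with the axonemal ruler, tektins, the central apparatus, and proteins inside or attached to the doublet microtubules. The list also holds *Meig1*, which acts in transport along the spermatid manchette. Genes were taken from the list by symbol, and all 44 were found among the 55357 genes of the deposited table. RNA was measured in germ cells prepared by enzymatic digestion from the testes of 8 C57BL/6 males at 15 days after birth, with 1 library per mouse. The 4 controls were *Mgat2*[F/F] and the 4 conditional knockouts (cKO) were *Mgat2*[F/F]:*Stra8*-iCre, so both genotypes carried floxed *Mgat2* alleles and only the cKO mice carried the iCre transgene. The *Stra8* promoter drives iCre in spermatogonia from 3 days after birth, and not in somatic cells. *Mgat2* encodes the transferase that adds the GlcNAc needed for a biantennary complex N-glycan, and its level was 56.4 ± 16.9 CPM (normalized read counts scaled to a common library size) in controls and 27.2 ± 10.8 CPM in cKO mice (SD, n = 4 each). Control replicates 1 to 4 had 1028, 490, 1017 and 766 *Mgat2* counts, cKO replicates 1 to 4 had 531, 310, 539 and 226, the genotypes overlapped, and the log2 fold change was -1.05 (SE 0.36, adjusted p = 0.47, edgeR).

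The axoneme is the microtubule core of cilia and of the sperm tail. Dynein arms slide its outer doublet microtubules against each other. Radial spokes carry signals from the central apparatus to the doublets, the nexin-dynein regulatory complex links neighbouring doublets, and tektins and other inner proteins line the doublet lumen. In the testis, many axoneme genes are already transcribed in pachytene spermatocytes, well before the tail is built in spermatids.

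Controls had totals of 12584726 to 15907505 expected counts and cKO mice of 14069373 to 15572196, so a floor of 3 counts was worth 0.189 to 0.238 CPM. The members took 0.0815 to 0.224% of these counts in controls and 0.0517 to 0.0915% in cKO mice. Replicate 1 stood apart in both genotypes. For 34 of the 42 members that could be tested, it was the highest library of its genotype in controls and in cKO mice alike, which held for 22.2% of all 20187 genes tested. Control replicate 1 was at a median of 2.35 times the mean of control replicates 2 to 4, and cKO replicate 1 at 1.99 times the mean of its genotype's replicates 2 to 4. Summed over the 44 members, TPM, a level that also takes gene length into account, came to 3492, 1459.5, 1814 and 1179 in control replicates 1 to 4 and to 1341, 708, 790.2 and 724 in cKO replicates 1 to 4. The cKO replicate 1 therefore lay among control replicates 2 to 4, while cKO replicates 2 to 4 lay below every control. Values over replicates 2 to 4 are therefore given below for the members whose libraries are listed and whose call they change, and for *Ccdc39*. The other tested members with listed libraries stayed uncalled there, at adjusted p of 0.057 (*Mns1*) to 0.93 (*Spag6*, edgeR). Replicate 1 stood apart in these same member values, so p-values without it are not independent of that choice.

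Markers of the cell types that the preparation could hold were summed in the same way. The pachytene spermatocyte list moved with the members: its summed TPM was 764.6 to 2654 in controls, against 384.8 to 949.7 in cKO mice, replicate 1 was the highest in both genotypes, and 11 of its 12 genes had a fold change below 1 with a median log2 fold change of -1.23. Of these 12 genes, edgeR called 0 and DESeq2 called 1, *Piwil1*. Round spermatid markers summed to between 33.0 and 83.2 TPM in controls and between 20.3 and 34.4 TPM in cKO mice. Of the 5 genes tested 4 were lower, and DESeq2 called 1 of them, *Acr*. *Spaca7*, *Prm1* and *Tnp2* were at 0 in every library, and *Acrv1* and *Prm2* stayed under 1 TPM in all. *Tnp1* was at 0 to 1.73 TPM in controls and 0 to 6.06 TPM in cKO mice. Markers of multiciliated epithelium summed to between 18.1 and 77.9 TPM in controls and between 10.98 and 21.6 TPM in cKO mice. Of its 7 genes tested 4 were lower, and their median log2 fold change was -0.03. Within that list *Cdhr3*, *Gmnc* and *Mcidas* stayed under 1 TPM in every library, while *Ccno* was at 3.23 to 6.76, *Deup1* at 0.98 to 2.10 and *Foxj1*, the regulator of motile cilia, at 0.73 to 2.43 TPM over the 8 libraries. DESeq2 called 1 gene of it, *Cdhr4*, which was at 69.1, 9.51, 24.7 and 14.5 TPM in the controls and 11.9, 0.63, 4.34 and 1.65 TPM in the cKO mice. The pachytene, round spermatid and multiciliated lists overlapped between genotypes only through cKO replicate 1. The lower cKO sums of the multiciliated list came from *Cdhr4*. That gene made up 69.1 of 77.9 TPM in control replicate 1 and 11.9 of 21.6 TPM in cKO replicate 1. The remaining lists overlapped too. Undifferentiated spermatogonia summed to 104 to 134 against 116 to 159 TPM (1 of 9 genes below 0 in log2 fold change, *Id4*, which DESeq2 called), differentiating spermatogonia to 1046 to 1173 against 1132 to 1341 TPM (1 of 8), and leptotene and zygotene spermatocytes to 963 to 1228 against 878 to 1030.2 TPM (5 of 10). Sertoli cell markers were abundant, at 6831 to 8448 against 7193 to 8450.4 TPM (2 of 10), in a preparation labelled as germ cells. Leydig cells (35.9 to 89.7 against 48.6 to 73.8 TPM), peritubular myoid cells (386 to 517 against 349.9 to 660.0), macrophages (31.6 to 46.6 against 40.9 to 52.9) and epithelial cells (51.4 to 59.4 against 56.6 to 66.9) overlapped as well, with 3 of 6, 0 of 5, 1 of 6 and 0 of 3 of their genes below 0 in log2 fold change. The part of pachytene, spermatid or multiciliated cell content in the results below was not tested, and in these bulk samples fewer cells of a type and less RNA per cell cannot be told apart.

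**Figure D1:**
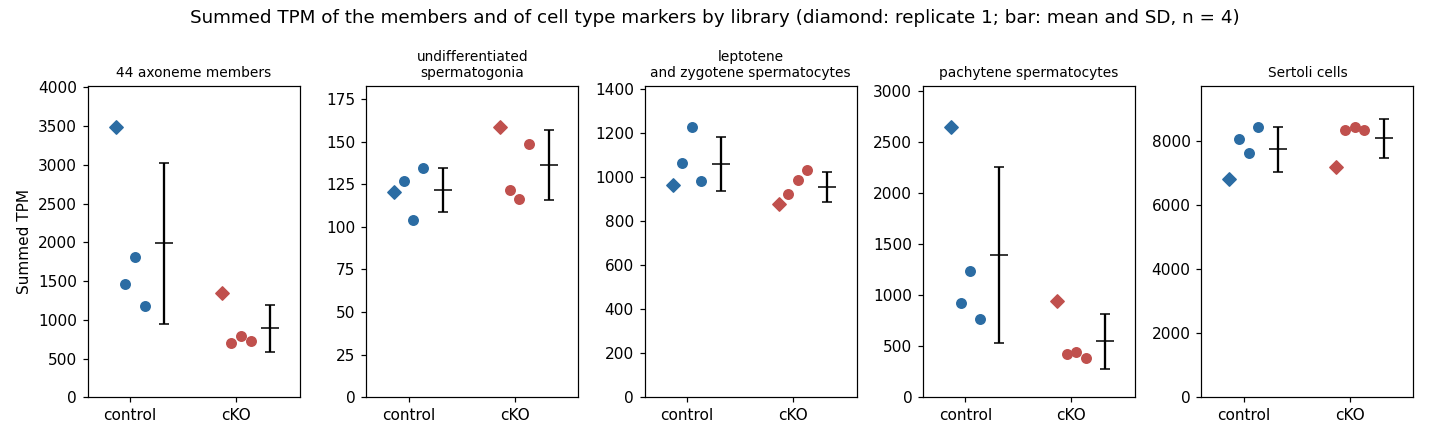
Summed TPM per library of the 44 members and of 4 marker lists, with controls in blue, cKO mice in red, replicate 1 as a diamond, and the mean with SD (n = 4) as a bar. Members and pachytene markers share the high replicate 1 and the lower cKO values, and overlap between genotypes only through cKO replicate 1. The spermatogonial, leptotene and zygotene, and Sertoli lists overlap in other libraries too.

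The members were lower in cKO germ cells as a group, but the difference of no single member passed the main test. Of the 42 members with at least 1 TPM in at least 1 library, 39 had a log2 fold change (cKO over control) below 0, against 48.6% of all genes tested. Their median log2 fold change was -1.32, with a range of -2.30 to 0.43 and a median SE of 0.48, and the median over all genes was 0.01. Without control replicate 1 the median over members was -0.68, and without cKO replicate 1 it was -1.61. EdgeR called 0 members at an adjusted p under 0.05, where 0.0396% of all genes were called. The smallest adjusted p was 0.085, for *Lrrc71*. Unadjusted p was under 0.05 for 22 members, all lower in cKO mice (6.28% of all genes), and for 0 members that were higher (2.62% of all genes). In 9 members every cKO library was below every control library (3.03% of all genes), and in 0 members every cKO library was above (2.47% of all genes). These 9 were *Rsph14*, *Nme5*, *Iqcd*, *Ccdc39*, *Hydin*, *Spef1*, *Efhb*, *Spag8* and *Lrrc71*.

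Counts of called members moved with the tool and with replicate 1. DESeq2 was the tool the authors used. Limma-voom called 0 members, as it did of all genes, with 28 members at an unadjusted p under 0.05 (10.1% of all genes). DESeq2 called 8 members, all lower (1.41% of all genes were called lower and 0.0892% higher), namely *Nme5*, *Iqcd*, *Ccdc39*, *Hydin*, *Efhb*, *Enkur*, *Spag8* and *Lrrc71*, and gave *Rsph14*, *Tekt3* and *Efcab6* no adjusted p. With replicates 2 to 4 only, edgeR called 23 members lower (3.78% of all genes) and 0 higher (0.451%), with a median log2 fold change of -1.18. In those 6 libraries all 3 cKO values lay below all 3 control values in 31 of 42 members (10.6% of all genes). The median coefficient of variation over the members was 54.5% in controls and 43.5% in cKO mice with all 4 libraries, and 28.1% and 19.8% with replicates 2 to 4. Leaving out 1 library moved the fold change of 18 members by more than 1.5 times, and that library was control replicate 1 or cKO replicate 1 in each case.

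**Figure D2:**
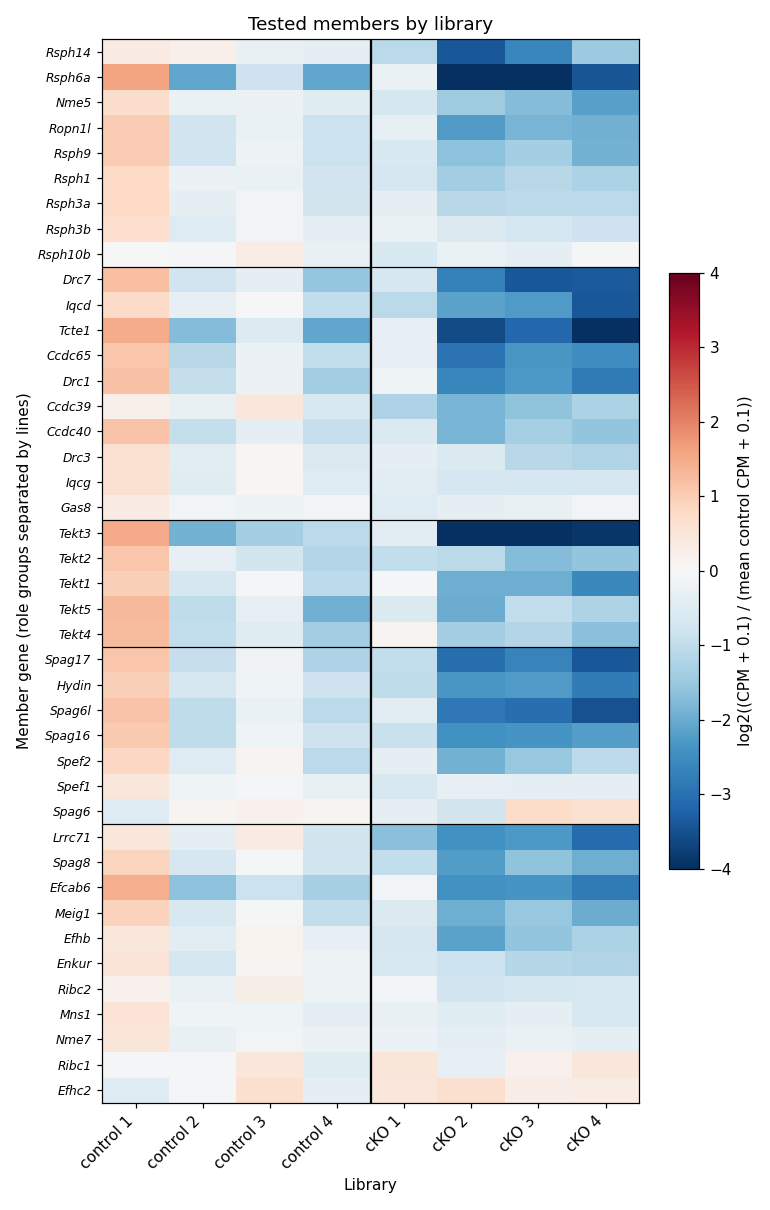
Heat map of the 42 tested members in 8 libraries, each value the log2 of CPM (plus 0.1) against the gene's control mean, with values beyond 4 in either direction drawn in the end colour. Rows are grouped by structure. Control replicate 1 is the highest control for 36 members and cKO replicate 1 the highest cKO library for 37, and the darkest blue lies in cKO replicates 2 to 4, most of all for *Tekt3* and *Rsph6a*.

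**Figure D3:**
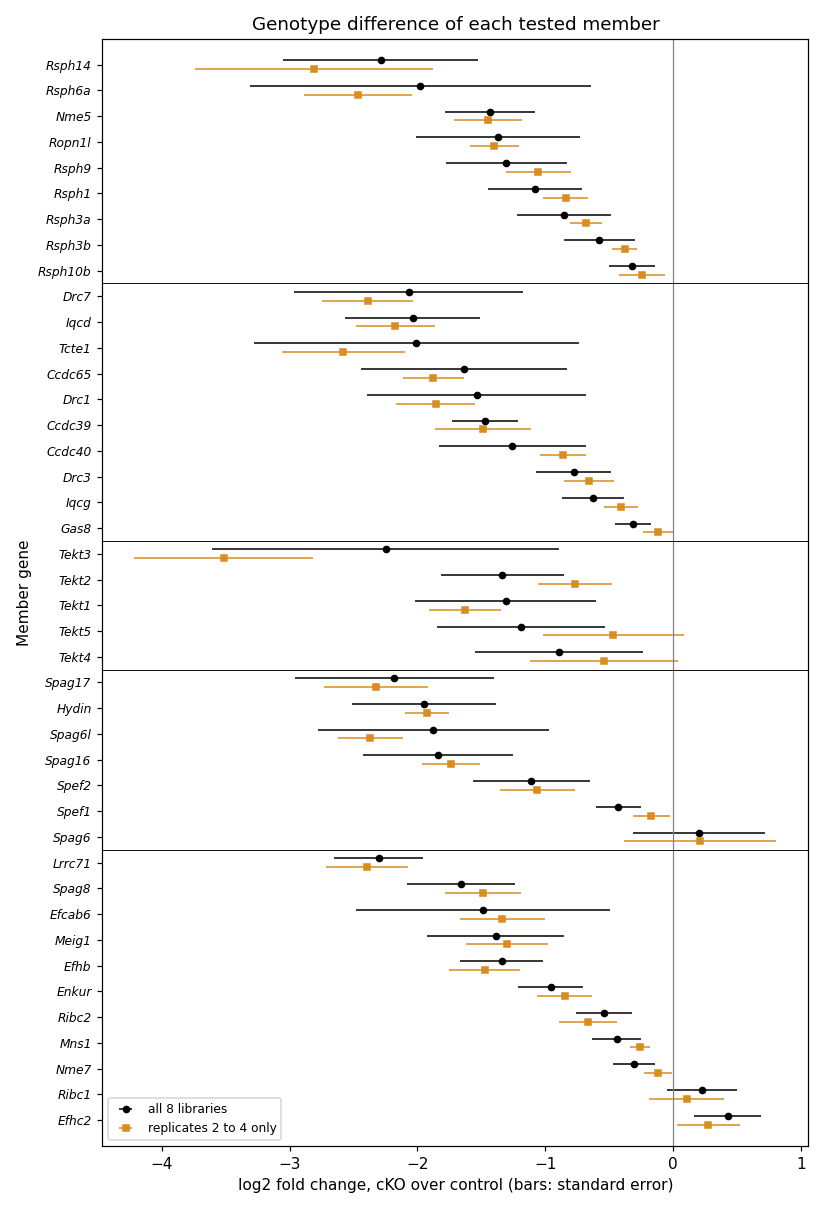
Log2 fold change (cKO over control) with SE of each tested member, over all 8 libraries and over replicates 2 to 4. The 39 values below 0 and the 3 above it (*Spag6*, *Efhc2* and *Ribc1*) are shown by structure.

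Promoters of ciliary genes are known for the X-box, the site that RFX transcription factors bind, whose half-site is GTTGCC. The 300 bases from 250 before to 50 into the canonical transcript were read on GRCm39 for all 44 members. GTTGCC, searched on both strands, was in 20 of the 44 windows (45.5%), against 11.8% of 21757 protein-coding promoters and 12.4% of the 14831 among them that were tested here. The full palindrome, GTTNCC and GGNAAC on one strand with 2 bases between them, was in 1 member, *Efhb*, and in 0.414% of all promoters. Median log2 fold change was -1.35 in the 20 members with GTTGCC and -1.31 in the 22 tested members without it. *Efhb* is among the 22, since its palindrome reads GTTTCC and not GTTGCC. The windows below are shown since they hold the half-site, or in *Efhb* the palindrome, in genes whose fold changes span much of the range. Each is upstream of the start of the canonical transcript, reads 5′ to 3′ on the gene's strand and has 1 match in capitals (GGCAAC is the half-site on the other strand), with any further match left in lower case.
Spag16: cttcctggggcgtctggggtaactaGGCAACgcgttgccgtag
Efhb: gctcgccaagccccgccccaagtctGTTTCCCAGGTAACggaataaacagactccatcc
Tekt2: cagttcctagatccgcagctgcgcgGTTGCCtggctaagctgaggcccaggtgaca
Enkur: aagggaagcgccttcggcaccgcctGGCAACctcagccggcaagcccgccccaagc
Mns1: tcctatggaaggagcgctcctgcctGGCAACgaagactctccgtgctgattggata
Nme7: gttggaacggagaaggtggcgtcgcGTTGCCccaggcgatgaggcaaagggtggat
Spag6: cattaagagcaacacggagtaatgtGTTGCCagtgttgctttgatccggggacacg
They lie at chr1:69865993-69866035, forward strand; chr17:53770350-53770408, reverse strand; chr4:126219547-126219602, reverse strand; chr2:21210560-21210615, reverse strand; chr9:72345714-72345769, forward strand; chr1:164135080-164135135, forward strand; and chr2:18703422-18703477, forward strand, in that order. Their genes had log2 fold changes of -1.84, -1.34, -1.34, -0.96, -0.44, -0.30 and 0.21. A match of letters is no evidence of binding in these cells.

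All 9 radial spoke members tested were lower in cKO mice, with a median log2 fold change of -1.31. Of them, 4 had an unadjusted p under 0.05, DESeq2 called 1 and edgeR on replicates 2 to 4 called 6. For this and the structures below, the shares of all genes were 6.28% lower at an unadjusted p under 0.05 (edgeR), 1.41% called lower by DESeq2 and 3.78% called lower by edgeR on replicates 2 to 4. *Rsph1*, a spoke head protein (ENSMUSG00000024033, chr17:31473993-31496378, reverse strand), was the most abundant of them at 342, 165, 161 and 114 CPM in control replicates 1 to 4 and 123, 74.6, 90.3 and 81.3 CPM in cKO replicates 1 to 4. Control replicate 1 was far above the other 7 libraries, and cKO replicate 1 was above the lowest control. Its log2 fold change was -1.08 (SE 0.37, adjusted p = 0.48, edgeR). *Rsph3a* (ENSMUSG00000073471, chr17:8164398-8198656, forward strand) and *Rsph3b* (ENSMUSG00000023806, chr17:7171598-7216144, reverse strand) encode closely related spoke proteins that anchor protein kinase A. Values of *Rsph3a* were 153, 67.1, 81.5 and 53.3 CPM in the controls and 69.8, 41.5, 42.9 and 42.0 CPM in the cKO mice, a log2 fold change of -0.85 (SE 0.37, adjusted p = 0.57, edgeR) and of -0.68 over replicates 2 to 4 (adjusted p = 0.0058, edgeR). *Rsph3b* was at 129, 55.8, 74.8 and 63.1 CPM in the controls and 67.4, 54.0, 49.6 and 45.6 CPM in the cKO mice, a log2 fold change of -0.58 (SE 0.28, adjusted p = 0.59, edgeR) and of -0.38 over replicates 2 to 4 (adjusted p = 0.017, edgeR). In both, only cKO replicate 1 reached into the control range. Of the 150-base windows of their transcripts, 58.5% of those of *Rsph3a* occur in *Rsph3b* and 52.5% of those of *Rsph3b* occur in *Rsph3a*, so how their reads were divided is uncertain.

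The widest scatter among spoke genes was that of *Rsph6a*, the testis form of a spoke head protein (ENSMUSG00000040866, chr7:18788596-18808372, forward strand). It was at 32.3, 2.46, 6.07 and 2.499 CPM in the controls and 8.96, 0.518, 0.558 and 0.922 CPM in the cKO mice. Replicate 1 exceeded every other library of its genotype by several times its value, and the log2 fold change was -1.98 (SE 1.33, adjusted p = 0.69, edgeR). That value was -2.47 over replicates 2 to 4 (adjusted p = 1.1e-04, edgeR), but -0.42 without control replicate 1 and -4.01 without cKO replicate 1. Its relative in motile cilia, *Rsph4a* (ENSMUSG00000039552, chr10:33781036-33792347, forward strand), was under 1 TPM in every library and was not tested. *Rsph4a* had 4, 20, 11 and 6 counts in the controls and 5, 6, 4 and 6 counts in the cKO mice. *Ropn1*, a ropporin that binds kinase anchoring proteins (ENSMUSG00000022832, chr16:34470269-34498988, forward strand), had 0 counts in all 8 libraries, which allows up to 0.189 to 0.238 CPM. Its relative *Ropn1l* (ENSMUSG00000022236, chr15:31441355-31453883, reverse strand) was well expressed at 182, 50.9, 74.6 and 49.7 CPM in the controls and 71.8, 18.6, 24.4 and 23.6 CPM in the cKO mice. Only cKO replicate 1 overlapped the controls, and the log2 fold change was -1.37 (SE 0.64, adjusted p = 0.60, edgeR). It was -1.40 over replicates 2 to 4 (adjusted p = 0.0062, edgeR), -0.75 without control replicate 1 and -2.01 without cKO replicate 1.

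*Nme5*, a nucleoside diphosphate kinase family protein of the spoke (ENSMUSG00000035984, chr18:34671157-34712193, reverse strand), separated the genotypes. Its values were 13.1, 6.68, 6.89 and 5.70 CPM in the controls and 4.91, 2.98, 2.37 and 1.70 CPM in the cKO mice. Every cKO library was below every control, although cKO replicate 1 came within 1 CPM of the lowest control. The log2 fold change was -1.43 (SE 0.35, adjusted p = 0.31, edgeR), and DESeq2 gave an adjusted p of 0.015. It was -1.45 over replicates 2 to 4 (adjusted p = 2.6e-04, edgeR). *Rsph14* (ENSMUSG00000009070, chr10:74793309-74868473, reverse strand) was rare, at 18, 17, 12 and 9 counts in the controls and 6, 0, 1 and 4 counts in the cKO mice. The libraries of the genotypes did not overlap, but cKO replicates 2 and 3 were at or under the floor of 3 counts, so the log2 fold change of -2.29 (SE 0.76, adjusted p = 0.43, edgeR) rests on few reads. It was -2.95 without cKO replicate 1. *Rsph9*, another head protein, was at 10.0 ± 6.91 against 4.05 ± 1.75 CPM (SD, n = 4 each) and *Rsph10b* at 11.1 ± 1.94 against 8.91 ± 1.37 CPM (SD, n = 4 each).

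All 10 members of the nexin-dynein regulatory complex and the ruler were lower in cKO mice, with a median log2 fold change of -1.50; 5 had an unadjusted p under 0.05, DESeq2 called 2 and edgeR on replicates 2 to 4 called 6. *Ccdc39* (ENSMUSG00000027676, chr3:33864905-33898478, reverse strand) encodes a partner of CCDC40 in the coiled-coil ruler that sets the spacing of spokes and inner dynein arms. Its values were 97.4, 68.5, 115 and 54.0 CPM in control replicates 1 to 4 and 35.8, 23.1, 27.6 and 34.6 CPM in cKO replicates 1 to 4. This was the clearest gap of the group, since the highest cKO library was cKO replicate 1 and still lay well under the lowest control. The log2 fold change was -1.47 (SE 0.26, adjusted p = 0.21, edgeR), and the adjusted p was 2.6e-07 with DESeq2 and 0.19 with edgeR on replicates 2 to 4. Of its transcript windows, 45.8% also occur in transcripts of *Ttc14*, the gene on the opposite strand, and the libraries carry no strand. *Ccdc40* itself was at 25.02 ± 20.1 against 10.5 ± 4.44 CPM (SD, n = 4 each).

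*Iqcd*, a subunit of the regulatory complex (ENSMUSG00000029601, chr5:120725788-120745183, forward strand), was at 18.3, 8.49, 10.7 and 5.31 CPM in the controls and 4.98, 2.33, 2.16 and 0.922 CPM in the cKO mice. No cKO library reached the lowest control, at a log2 fold change of -2.04 (SE 0.53, adjusted p = 0.34, edgeR), and DESeq2 gave an adjusted p of 0.0035. The log2 fold change was -2.17 over replicates 2 to 4 (adjusted p = 4.6e-05, edgeR). *Rita1* transcripts hold 27.5% of its windows. *Gas8* (ENSMUSG00000040220, chr8:124245573-124263799, forward strand), which encodes another core subunit, was at 34.9, 25.5, 23.9 and 25.8 CPM in the controls and 19.4, 21.4, 22.4 and 25.4 CPM in the cKO mice. The genotypes overlapped, and the log2 fold change was -0.31 (SE 0.14, adjusted p = 0.55, edgeR). *Gas8* had the smallest fold change of the 10. The 6 other subunits ran from -0.62 (*Iqcg*) to -2.07 (*Drc7*). *Drc1* and *Ccdc65*, which form the base of the complex, were at 10.1 ± 8.72 against 3.47 ± 3.71 CPM (SD, n = 4 each) and at 24.1 ± 19.3 against 7.76 ± 7.52 CPM (SD, n = 4 each), respectively. *Drc3*, which lies in the linker between the doublets, was at 25.5 ± 10.1 against 14.8 ± 4.10 CPM (SD, n = 4 each), and *Tcte1*, another linker subunit, at 8.85 ± 10.8 against 2.18 ± 3.20 CPM (SD, n = 4 each). *Drc1*, *Drc7*, *Ccdc65* and *Tcte1* were called by edgeR on replicates 2 to 4 and had unadjusted p above 0.05 over all 8 libraries.

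**Figure D4:**
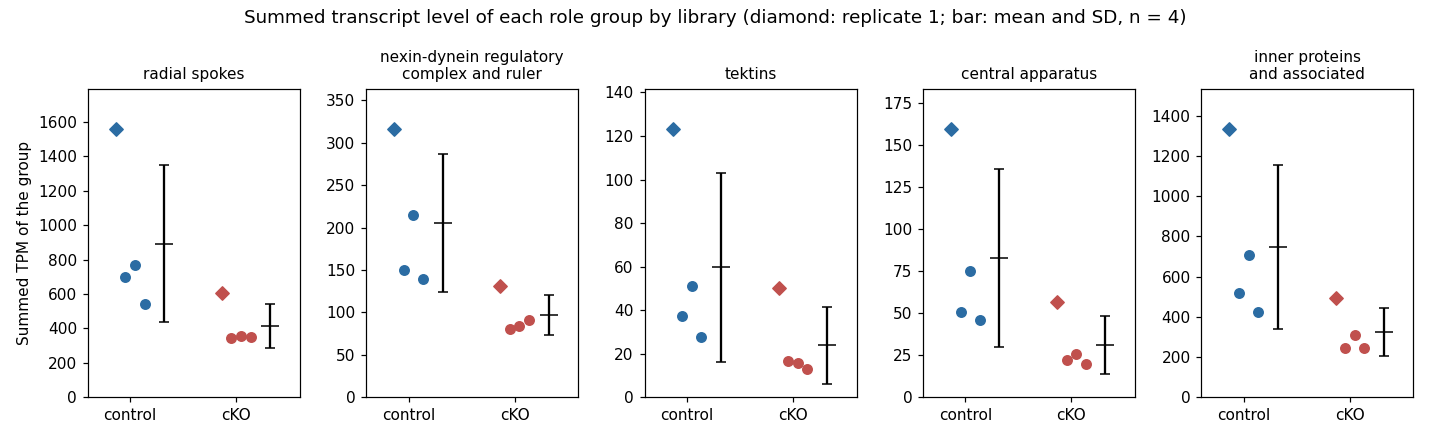
Summed TPM of each of the 5 structures per library, with controls in blue, cKO mice in red, replicate 1 as a diamond and the mean with SD (n = 4) as a bar. In each structure cKO replicates 2 to 4 lie below all 4 controls, and cKO replicate 1 lies within or close to the range of control replicates 2 to 4.

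Tektins form the filament bundle inside the doublet. All 5 were lower in cKO mice, with a median log2 fold change of -1.31, but their replicate 1 was higher above the rest than that of any other structure, at a median of 4.85 times replicates 2 to 4 in controls and 3.10 times in cKO mice. *Tekt1* (ENSMUSG00000020799, chr11:72235545-72253268, reverse strand) was at 53.6, 17.3, 26.8 and 13.4 CPM in the controls and 26.1, 7.05, 7.05 and 4.54 CPM in the cKO mice. Replicates 2 to 4 did not overlap between genotypes, but cKO replicate 1 was above control replicates 2 and 4 and close to replicate 3; the log2 fold change was -1.31 (SE 0.71, adjusted p = 0.64, edgeR), and -1.63 over replicates 2 to 4 (adjusted p = 0.0097, edgeR) or -2.16 without cKO replicate 1. *Tekt2* (ENSMUSG00000028845, chr4:126215914-126219481, reverse strand) was at 16.1, 5.96, 4.49 and 3.28 CPM in the controls and 3.72, 3.49, 2.16 and 2.41 CPM in the cKO mice. Here cKO replicates 1 and 2 were above the lowest control, and the log2 fold change was -1.34 (SE 0.48, adjusted p = 0.47, edgeR), or -0.63 without control replicate 1. *Tekt5* (ENSMUSG00000039179, chr16:10175812-10213354, reverse strand) was at 5.84, 1.10, 1.83 and 0.547 CPM in the controls and 1.53, 0.518, 1.12 and 0.922 CPM in the cKO mice. The genotypes overlapped, with a log2 fold change of -1.19 (SE 0.66, adjusted p = 0.63, edgeR), or -0.19 without control replicate 1. *Tekt3* was at or under the floor of 3 counts in cKO replicates 2 to 4, with 196, 18, 27 and 27 counts in the controls and 51, 2, 1 and 3 counts in the cKO mice. *Tekt4* was at 2.01 ± 1.99 against 1.08 ± 0.751 CPM (SD, n = 4 each). EdgeR on replicates 2 to 4 called 2 tektins, *Tekt1* and *Tekt3*, and DESeq2 called 0.

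Of the 7 central apparatus members, 6 were lower and 1 was higher, with a median log2 fold change of -1.84, the lowest of the 5 structures; 5 had an unadjusted p under 0.05. *Hydin* (ENSMUSG00000059854, chr8:110993583-111337133, forward strand) encodes a giant protein of a central pair projection. It was at 85.7, 28.3, 39.4 and 25.4 CPM in control replicates 1 to 4 and 21.8, 8.87, 9.28 and 6.38 CPM in cKO replicates 1 to 4. The groups did not overlap, though cKO replicate 1 came close to the lowest control. The log2 fold change was -1.95 (SE 0.56, adjusted p = 0.44, edgeR), and DESeq2 gave an adjusted p of 0.036. It was -1.93 over replicates 2 to 4 (adjusted p = 7.5e-07, edgeR). *Spag16* (ENSMUSG00000053153, chr1:69866036-70764291, forward strand), a central bridge protein, was at 36.1, 8.69, 15.7 and 9.84 CPM in the controls and 9.36, 3.17, 3.35 and 3.76 CPM in the cKO mice. Only cKO replicate 1 was above a control, and the log2 fold change was -1.84 (SE 0.59, adjusted p = 0.45, edgeR). It was -1.74 over replicates 2 to 4 (adjusted p = 1.4e-06, edgeR) and -1.21 without control replicate 1. *Spag17*, its partner in the central apparatus, had the largest fold change of the structure, -2.18 (log2), at 53.7 ± 42.3 against 11.8 ± 10.4 CPM (SD, n = 4 each).

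*Spag6l* (ENSMUSG00000022783, chr16:16568950-16647402, reverse strand) and *Spag6* (ENSMUSG00000037708, chr2:18698843-18755224, forward strand) are paralogs for an armadillo repeat protein of the central pair. They share no 150-base window, so their reads can be told apart. *Spag6l* was at 94.7, 21.1, 35.4 and 20.1 CPM in the controls and 31.7, 5.82, 5.23 and 3.76 CPM in the cKO mice, with cKO replicate 1 inside the range of the controls. Its log2 fold change was -1.88 (SE 0.90, adjusted p = 0.61, edgeR), or -2.37 over replicates 2 to 4 (adjusted p = 3.0e-04, edgeR). It was -1.12 without control replicate 1 and -3.11 without cKO replicate 1. *Spag6* was hardly expressed, at 0.475, 0.778, 0.821 and 0.781 CPM in the controls and 0.531, 0.388, 1.26 and 1.13 CPM in the cKO mice. Its libraries overlapped in CPM, and its log2 fold change was 0.21 (SE 0.52, adjusted p = 0.94, edgeR). *Spef1* (ENSMUSG00000027329, chr2:131012181-131029351, reverse strand), which encodes a microtubule bundling protein of the central pair, was at 23.96, 15.4, 16.6 and 14.1 CPM in the controls and 11.1, 14.0, 13.5 and 13.6 CPM in the cKO mice. Every cKO library was just below every control, and the log2 fold change was -0.43 (SE 0.18, adjusted p = 0.52, edgeR). Of its transcript windows, 64.6% occur in *Cenpb*, a broadly expressed centromere gene on the same strand, so the part of *Spef1* itself in these counts is uncertain. *Spef2* was at 8.44 ± 4.83 against 3.92 ± 1.93 CPM (SD, n = 4 each).

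Of the 11 inner and associated proteins, 9 were lower and 2 higher, with a median log2 fold change of -0.96; 7 had an unadjusted p under 0.05, DESeq2 called 4 and edgeR on replicates 2 to 4 called 5. *Lrrc71* (ENSMUSG00000023084, chr3:87644230-87655932, reverse strand) had the largest fold change of all 42 members tested and the smallest adjusted p. It was at 31.0, 17.5, 28.0 and 13.5 CPM in control replicates 1 to 4 and 6.97, 4.14, 4.54 and 2.55 CPM in cKO replicates 1 to 4. The highest cKO library, replicate 1, was well under the lowest control, and the log2 fold change was -2.30 (SE 0.35, adjusted p = 0.085, edgeR). Adjusted p was 8.8e-09 with DESeq2 and 0.0038 with edgeR on replicates 2 to 4. Transcripts of *Arhgef11*, on the opposite strand, hold 22.2% of its windows.

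*Efhb* (ENSMUSG00000023931, chr17:53705917-53770360, reverse strand), an EF-hand protein of the doublet lumen and the member with the full X-box, was at 9.84, 5.38, 7.96 and 5.78 CPM in the controls and 4.51, 1.55, 2.37 and 2.98 CPM in the cKO mice. Every cKO library was below every control. The log2 fold change was -1.34 (SE 0.32, adjusted p = 0.27, edgeR), with an adjusted p of 0.014 by DESeq2, and -1.47 over replicates 2 to 4 (adjusted p = 3.3e-04, edgeR). *Spag8*, a sperm-associated antigen that also lines the lumen, was at 7.45 ± 4.49 against 2.36 ± 0.978 CPM (SD, n = 4 each). It did not overlap between genotypes, with an adjusted p of 0.32 by edgeR and 0.014 by DESeq2. *Enkur*, an adaptor that binds calcium channels and lies in the lumen, was at 11.2 ± 3.92 against 5.78 ± 1.08 CPM (SD, n = 4 each). Its genotypes overlapped through cKO replicate 1, and adjusted p was 0.32 by edgeR and 0.039 by DESeq2.

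*Meig1* (ENSMUSG00000026650, chr2:3405007-3425021, reverse strand), which acts in cargo transport along the spermatid manchette, was together with *Rsph1* the most abundant member per length, at means of 569.9 and 342 TPM in controls. *Meig1* was at 201, 68.9, 103 and 53.9 CPM in the controls and 70.8, 27.6, 37.5 and 27.2 CPM in the cKO mice. The genotypes overlapped through cKO replicate 1, and the log2 fold change was -1.39 (SE 0.53, adjusted p = 0.53, edgeR). *Mns1* (ENSMUSG00000032221, chr9:72345268-72369307, forward strand), a coiled-coil lumen protein that was also described in the meiotic nucleus, was at 144, 88.5, 88.0 and 76.3 CPM in the controls and 80.8, 70.5, 77.5 and 63.5 CPM in the cKO mice. Only cKO replicates 1 and 3 were above the lowest control. The log2 fold change was -0.44 (SE 0.19, adjusted p = 0.56, edgeR), and 52.3% of its windows occur in *Tex9*. *Ribc2* (ENSMUSG00000022431, chr15:85016275-85028771, forward strand), a lumen protein, was at 8.15, 6.03, 8.53 and 6.33 CPM in the controls and 6.77, 4.21, 4.40 and 4.61 CPM in the cKO mice, a log2 fold change of -0.54 (SE 0.22, adjusted p = 0.52, edgeR). Its relative *Ribc1* (ENSMUSG00000025257, chrX:150787574-150799879, reverse strand) was at 3.33, 3.24, 4.68 and 2.42 CPM in the controls and 4.78, 2.72, 3.84 and 4.68 CPM in the cKO mice, a log2 fold change of 0.22 (SE 0.27, adjusted p = 0.84, edgeR). The genotypes overlapped for both genes. *Efhc2*, an EF-hand protein of the lumen, was at 4.46 ± 1.77 against 6.02 ± 0.711 CPM (SD, n = 4 each). *Nme7*, a kinase family protein of the doublet, was at 31.8 ± 8.88 against 25.8 ± 1.39 CPM (SD, n = 4 each), and *Efcab6*, also with EF-hands, at 9.11 ± 10.7 against 3.23 ± 3.47 CPM (SD, n = 4 each).

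*Ribc1* and *Efhc2* are the 2 members on the X chromosome and 2 of the 3 members with a log2 fold change above 0. Over the 762 X-linked genes tested the median log2 fold change was 0.13, and 22.6% of them were below 0, against 48.6% of all genes. The 40 autosomal members tested had a median of -1.34.

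Related members were set against each other within each library, as the log2 ratio of TPM plus 0.1, since such a ratio hardly depends on how libraries are scaled. There were 5 pairs, and p is from two-sided exact permutation tests over 8 libraries, whose smallest possible value is 0.0286. *Ribc1* over *Ribc2* was -1.10, -0.72, -0.76 and -1.28 in the controls and -0.31, -0.43, -0.01 and 0.16 in the cKO mice. The genotypes did not overlap, and the difference was 0.81 (exact p = 0.0286, 0.107 after Benjamini-Hochberg adjustment over the 5 pairs). *Spag6l* over *Spag6* was 6.08, 3.75, 5.38 and 4.14 in the controls and 4.01, 1.80, 1.65 and 1.07 in the cKO mice. The genotypes overlapped through cKO replicate 1, and the difference was -2.71 (exact p = 0.0571, adjusted 0.107). *Spag6* was at 0.59 to 1.19 TPM in controls and 1.32 to 1.72 TPM in cKO mice, although its CPM overlapped, at 6 to 18 counts. The size of this difference therefore depends in part on the use of TPM, which also takes gene length into account. *Rsph3a* over *Rsph3b* was 0.86 ± 0.38 in controls and 0.33 ± 0.19 in cKO mice (SD, n = 4 each; exact p = 0.0857, adjusted 0.107). That difference was -0.53 in TPM, while the log2 fold changes of the 2 genes by edgeR, from counts, were -0.85 and -0.58. *Rsph4a* over *Rsph6a* was -3.71 ± 2.25 and -2.27 ± 1.68 (SD, n = 4 each; exact p = 0.371, adjusted 0.371), with replicate 1 the lowest library in both genotypes. For *Ropn1l* over *Ropn1* the ratio has no meaning, as *Ropn1* was at 0 throughout. No ratio passed 0.05 after adjustment.

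**Figure D5:**
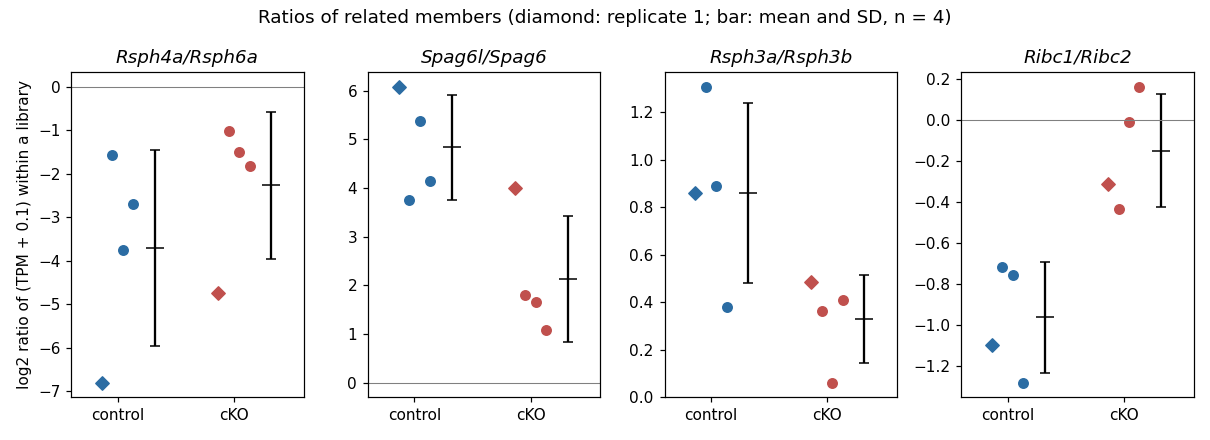
Log2 ratio of TPM (plus 0.1) of 2 related members within each library for 4 pairs, with controls in blue, cKO mice in red, replicate 1 as a diamond and the mean with SD (n = 4) as a bar. The genotypes separate without overlap for Ribc1 over Ribc2, at -1.28 to -0.72 in controls and -0.43 to 0.16 in cKO mice.

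Other genes of the same structures, 61 by name of which 47 were in the table and 42 could be tested, gave similar counts. Of these, 39 were lower in cKO mice (48.6% of all genes), with a median log2 fold change of -1.15. EdgeR called 0 (0.0396% of all genes). Unadjusted p was under 0.05 for 20 that were lower (6.28% of all genes) and 0 that were higher (2.62%), and 7 had every cKO library below every control (3.03%). DESeq2 called 9, all lower (1.41% of all genes): *Cfap74*, *Ccdc173*, *Stk36*, *Cfap65*, *Cfap69*, *Cfap221*, *Cfap46*, *Cfap45* and *Cfap54*. *Cfap74*, of the central apparatus, was at 44.1 ± 13.6 against 16.3 ± 2.72 CPM (SD, n = 4 each). With replicates 2 to 4 edgeR called 20 lower (3.78% of all genes) and 0 higher (0.451%).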

How the data were processed

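RNA-seq was performed on 8 germ cell samples, 4 per genotype, grouped by the genotype in the labels. Per the study's methods and processing notes, the authors made non-stranded polyA libraries, aligned reads to mm39 with STAR 2.7.9a and Ensembl annotation, and quantified genes with RSEM 1.3.3. Genotypes were compared by the authors with DESeq2 1.38.3, on genes with at least 1 TPM in at least 1 sample. The deposited expected counts are RSEM estimates per gene with no normalization between samples. For the same genes, the authors deposited TPM, scaled for gene length and depth in each library.

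Before testing, the counts were rounded (15.2% of non-zero values were not whole, at a tolerance of 1e-09). The 20187 genes reaching 1 TPM in any sample entered an edgeR 4.0.16 fit by genotype alone (TMM scaling, robust quasi-likelihood F-test). P-values were adjusted by Benjamini-Hochberg over these genes, and adjusted p under 0.05 is a call. Fold changes set cKO over control, CPM are TMM-normalized, and values are mean ± SD with each mouse as 1 replicate. Alternatives were DESeq2 1.42.0, limma-voom (limma 3.58.1), other scaling and filters, replicates 2 to 4 only, each sample left out, and the replicate number as a block. Ratios were compared with exact permutation tests (scipy 1.17.1). The scripts were tested on simulated data. Positions, transcripts and promoters came from GRCm39 with GENCODE mouse release 39, in which all 44 members were found by identifier; shared sequence was counted over windows of 150 bases of the member's transcript.

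Values of every sample are given for the 2 most abundant members (by TPM) of each structure, the 2 with the smallest p, members with adjusted p under 0.1 and members of the 5 pairs. The members and the gene lists were chosen with earlier results of these data known. Library totals were 12584726 to 15907505; 3 counts was taken as the smallest signal.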

Additional observations from a re-analysis of the deposited data

Results flagged for a closer look

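In 24 of 94 groups of 4 libraries (42 members, 4 ratios of related members and the summed TPM of all members, in each genotype), 1 library lay so far from the other 3 that its gap to the nearest of them made up more of the whole range of the group than Dixon's 95% critical value for 4 samples. For normally distributed values, chance alone passes this limit in about 1 of 20 groups, or 4.7 of 94. The CPM and summed TPM were used without logs, so that rate may not hold here, and the groups are not independent. All 24 were replicate 1, with 7 in controls and 17 in cKO mice. The genotypes were not compared with each other in this measure, and the cause was not tested.

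In cKO mice, replicate 1 was the high library in each case, given here against the range of replicates 2 to 4 with the share of the range in the gap. Among radial spoke genes these were *Rsph3a* 69.8 against 41.5 to 42.9 CPM (share 0.951), *Rsph6a* 8.96 against 0.518 to 0.922 CPM (share 0.952) and *Ropn1l* 71.8 against 18.6 to 24.4 CPM (share 0.890). In the nexin-dynein regulatory complex they were *Drc1* 9.03 against 1.35 to 1.95 CPM (share 0.921), *Drc7* 5.64 against 0.768 to 1.29 CPM (share 0.892), *Ccdc65* 19.0 against 3.04 to 4.75 CPM (share 0.893), *Iqcg* 39.7 against 33.4 to 34.1 CPM (share 0.893) and *Tcte1* 6.97 against 0.213 to 0.907 CPM (share 0.897). Among tektins they were *Tekt1* 26.1 against 4.54 to 7.05 CPM (share 0.883), *Tekt3* 3.39 against 0.0698 to 0.213 CPM (share 0.957) and *Tekt4* 2.19 against 0.567 to 0.838 CPM (share 0.834). In the central apparatus they were *Spag6l* 31.7 against 3.76 to 5.82 CPM (share 0.926), *Spag16* 9.36 against 3.17 to 3.76 CPM (share 0.905) and *Spag17* 27.4 against 5.04 to 8.38 CPM (share 0.850). The inner proteins had *Efcab6* 8.43 against 1.21 to 1.68 CPM (share 0.935) and *Ribc2* 6.77 against 4.21 to 4.61 CPM (share 0.843). The summed TPM of all members gave a share of 0.870, with cKO replicate 1 at 1341 and the others at 708 to 790.2.

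In controls, replicate 1 was the high library for *Rsph6a* 32.3 against 2.46 to 6.07 CPM (share 0.879), *Nme5* 13.1 against 5.70 to 6.89 CPM (share 0.840), *Ccdc40* 54.9 against 12.9 to 19.2 CPM (share 0.850), *Tekt3* 13.3 against 1.17 to 2.11 CPM (share 0.922), *Tekt4* 4.96 against 0.703 to 1.39 CPM (share 0.838) and *Efcab6* 25.1 against 2.85 to 4.93 CPM (share 0.906). It was the low library for *Spag6*, at 0.475 against 0.778 to 0.821 CPM (share 0.875).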

How the results depend on the processing

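The median log2 fold change of the members was -1.32 in the main fit and stayed negative under all 27 alternatives. It ran from -1.63 without cKO replicate 1 in DESeq2 to -0.68 without control replicate 1 in edgeR. Each value differed from the main one by less than 0.65, the pooled SD within genotypes of the median over members. That SD is one of single libraries and includes the high replicate 1, so it cannot show that the change to -0.68 is small. Of 1112 fitted values of single members, 3 changed sign, 185 passed the threshold and 924 kept both. *Tekt4* was at 0.074 without control replicate 1 in edgeR (range -1.50 to 0.074 when 1 library was left out) and at 0.069 without it in DESeq2, and *Spag6* at -0.066 without cKO replicate 3 (range -0.066 to 0.44).

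The counts of calls moved most. Against 0 members called by edgeR, limma-voom called 0 and DESeq2 called 8, edgeR on replicates 2 to 4 called 23 and DESeq2 on replicates 2 to 4 called 27 (4.12% of all genes were called lower). Leaving out 1 library gave 0 to 2 members with edgeR, the 2 being without control replicate 4 (0.149% of all genes were called lower). With DESeq2 the count was 4, 9, 3 and 16 without control replicate 1, 2, 3 or 4, and 25, 3, 3 and 3 without cKO replicate 1, 2, 3 or 4. The same fits without a control called 110, 286, 77 and 536 of all 20187 genes lower, and those without a cKO replicate 4.25, 0.401, 0.446 and 0.52% of all genes. Unadjusted p was under 0.05 for 22 members, for 11 (without cKO replicate 3, 5.95% of all genes in either direction) to 31 (without cKO replicate 1, 13% of all genes) in edgeR, and for 35 in DESeq2 without cKO replicate 1 (12.4% of all genes). All cKO libraries were below all controls for 9 members, for 31 over replicates 2 to 4 (10.6% of all genes), for 31 without cKO replicate 1 (8.97%) and for 14 without control replicate 4 (5.66%), within a range of 9 to 31. For other axoneme genes, the count of 0 became 1 with library totals, 9 with DESeq2, 20 on replicates 2 to 4 and 22 there with DESeq2. It was 0 to 1 in edgeR with 1 library left out, and in DESeq2 it was 3, 12, 3 and 16 without control replicate 1, 2, 3 or 4 and 25, 3, 3 and 4 without cKO replicate 1, 2, 3 or 4. The DESeq2 fits other than that on all 8 libraries without a block were added after the data had been seen.

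The samples of both genotypes carry replicate numbers 1 to 4 in the titles, and the labels do not say whether equal numbers mark a pairing. The main fit did not pair them. Deviations from the genotype means correlated across genes by 0.53, 0.14, 0.04 and 0.20 for the same-numbered samples 1 to 4, and by -0.35 to 0.20 for samples of different number. Only the value of samples 1 lay clearly above those of different number. With the replicate number as a block, edgeR called 28 members (6.45% of all genes were called lower) and DESeq2 called 31 (5.66%), all lower, 38 and 36 had an unadjusted p under 0.05 (17.4% and 12.9% of all genes in either direction), and 29 other axoneme genes were called by each tool. The log2 ratio of *Ribc1* to *Ribc2* differed by 0.81 under the block (exact sign-flip test, p = 0.125, the smallest it can give), by 0.83 over replicates 2 to 4 (exact permutation p = 0.1, the smallest it can give) and by 0.71 to 0.91 with 1 library left out (exact permutation p = 0.0571 each, the smallest it can give), so none of these designs could pass 0.05.

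With 4 mice per genotype, calls depended on replicate 1 and on the tool. Members at or near 3 counts (*Rsph14*, *Tekt3*, *Rsph4a*, *Ropn1*, *Spag6*) rest on too few reads for a firm fold change. Reads of *Rsph3a* and *Rsph3b*, which share sequence, and of *Spef1*, *Mns1*, *Iqcg* and *Ccdc39* with their overlapping neighbours cannot be fully divided, and counting error alone underlies the stated floors.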

Other observations

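Genes on the X chromosome were mostly higher in cKO germ cells. Of 762 X-linked genes tested, 172 had a log2 fold change below 0 (22.6%, against 48.6% of all genes). The median was 0.13, and the median over all genes was 0.01. Unadjusted p was under 0.05 for 87 that were higher (2.62% of all genes) and 3 that were lower (6.28% of all genes). EdgeR called 0 of them (0.0396% of all genes). *Ribc1* and *Efhc2*, the X-linked members of the axoneme list, had log2 fold changes of 0.22 and 0.43, and no test of X-linked against autosomal genes was made.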
